A study of Homo sapiens with 9 samples.

Results

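The 52 genes described here encode DNA repair enzymes and the kinases and scaffolds of the DNA damage checkpoint, with BLM as the gene that marks the group. They were chosen by name, and the rule asked only that each symbol be present in the deposited expression table. All 52 of 52 were present among the 15164 genes listed. RNA was sequenced from HepG2, a cell line from a human liver cancer, labelled wild type in genotype. All 9 libraries came from cells transfected with small interfering RNA (siRNA): si-scramble, labelled si-NC and used as the control, si-IGFRIL against the long non-coding RNA IGFRIL, or si-PTBP1 against PTBP1, an RNA-binding protein that represses exons and can change mRNA stability. Each group had 3 libraries. The study lists more than 1 siRNA for each target, and which of them entered the libraries was not stated, nor do the labels say that the libraries came from separate cultures, so that a p-value covers the variation among the libraries, whose source may be technical.

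DNA repair is divided by the kind of lesion. Homologous recombination copies an intact sister chromatid to mend a broken chromosome, non-homologous end joining religates the ends directly, the Fanconi anemia pathway unhooks crosslinks between strands, and mismatch, nucleotide excision and base excision repair replace damaged or wrongly paired bases on a strand. ATM and ATR are the kinases that sense breaks and stalled forks and pass the signal to CHEK2 and CHEK1, which hold the cell cycle while repair goes on. Proliferating liver cancer cells use most of these pathways during each S phase.

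After PTBP1 knockdown 32 of the 52 genes were called lower and 8 were called higher against si-NC, and the other 12 were not called (limma, Benjamini-Hochberg adjusted p under 0.05 over all listed genes and a fold change over 1.2). Of all 15164 genes, 33.8% were called lower and 32.2% higher in the same comparison. The median log2 fold change of the 52 genes was -0.57, where the median of all genes was 0.00. The largest falls were in RECQL, MDC1, LIG4 and NBN, and the largest rises in XRCC3, RECQL4, ERCC1 and CHEK2. After IGFRIL knockdown none of the 52 genes was called in either direction by limma. Of all genes 0.270% were called higher and 0.191% lower. At limma p under 0.05 before adjustment, 0 of the 52 genes were higher and 3 lower. Of all 15164 genes, 835 were higher and 669 lower at that looser threshold.

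The direction of a gene after PTBP1 knockdown went with the length of its transcript, and this held for the whole table. Over 13878 genes with an annotated length, Spearman's rho between length and log2 fold change was -0.55, and over the 52 genes it was -0.61. These are descriptions across genes measured in the same libraries, and genes are not independent replicates. The 52 genes had longer transcripts than the table as a whole, with a median of 4255 bases against 3108 for all genes. Among the 20 of them with transcripts of 5000 bases or more, 16 were called lower and 0 higher, where 67.7% of all genes of that length were called lower and 8.57% higher. Among the 26 between 2500 and 5000 bases, 15 were lower and 5 higher, with 40.0% and 23.9% for all genes. Among the 6 under 2500 bases, 1 was lower and 3 were higher, with 10.1% and 56.2% for all genes.

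When the trends of the values on transcript length and on GC content were removed from each library, 22 of the 52 genes were called lower and 10 higher, and their median log2 fold change was -0.15. The shares over all genes with a length were then 26.4% lower and 24.5% higher. Of the 32 genes called lower, 19 were still called lower, and of the 8 called higher, 5 were still called higher. The sign of the estimate turned for 17 of the 52 genes, and FANCD2 and MRE11 went from a call as lower to a call as higher. Values with the trend removed are therefore given beside genes whose call or sign they change, and the part that length plays in the fold changes was not tested further.

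The libraries held 23426747 to 27942736 counts each. PTBP1 was called lower in the si-PTBP1 libraries, by 4.51-fold with a log2 fold change of -2.17 ± 0.0449 (SE, n = 3 against 3, limma adjusted p = 3.2e-17), which checks those labels. IGFRIL was not analysed here, so its own knockdown has no value. Only 3 of 13 hepatocyte markers were listed and none was at 0. Their summed scaled counts, nearly all from the urea cycle enzyme CPS1, were 71145 to 78588 in si-NC, 66120 to 75070 in si-IGFRIL and 44513 to 45750 in si-PTBP1, and APOE with TF went from 31 to 50 in si-NC to 110 to 185 in si-PTBP1. The gene filter was not given, so the absence of ALB, AFP and the other hepatocyte markers not listed does not give their level. Of 9 markers of endothelial cells, fibroblasts or stellate cells, and leukocytes 6 were listed, and none was at 0. Their sums were 5448 to 6375 in si-NC, 5539 to 5755 in si-IGFRIL and 6324 to 6784 in si-PTBP1, nearly all from COL1A1. After PTBP1 knockdown CD14 was called higher and CDH5 and VWF lower. The part of these markers in the results was not tested. In bulk RNA, fewer cells of a kind and less RNA per cell cannot be told apart. Across all genes si-NC replicate 3 and si-IGFRIL replicate 2 deviated from their group means together (Pearson r = 0.416 over 10507 genes), and each held the lowest ATM and PRKDC counts of its group. The values most affected are also given without these libraries.

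**Figure D1:**
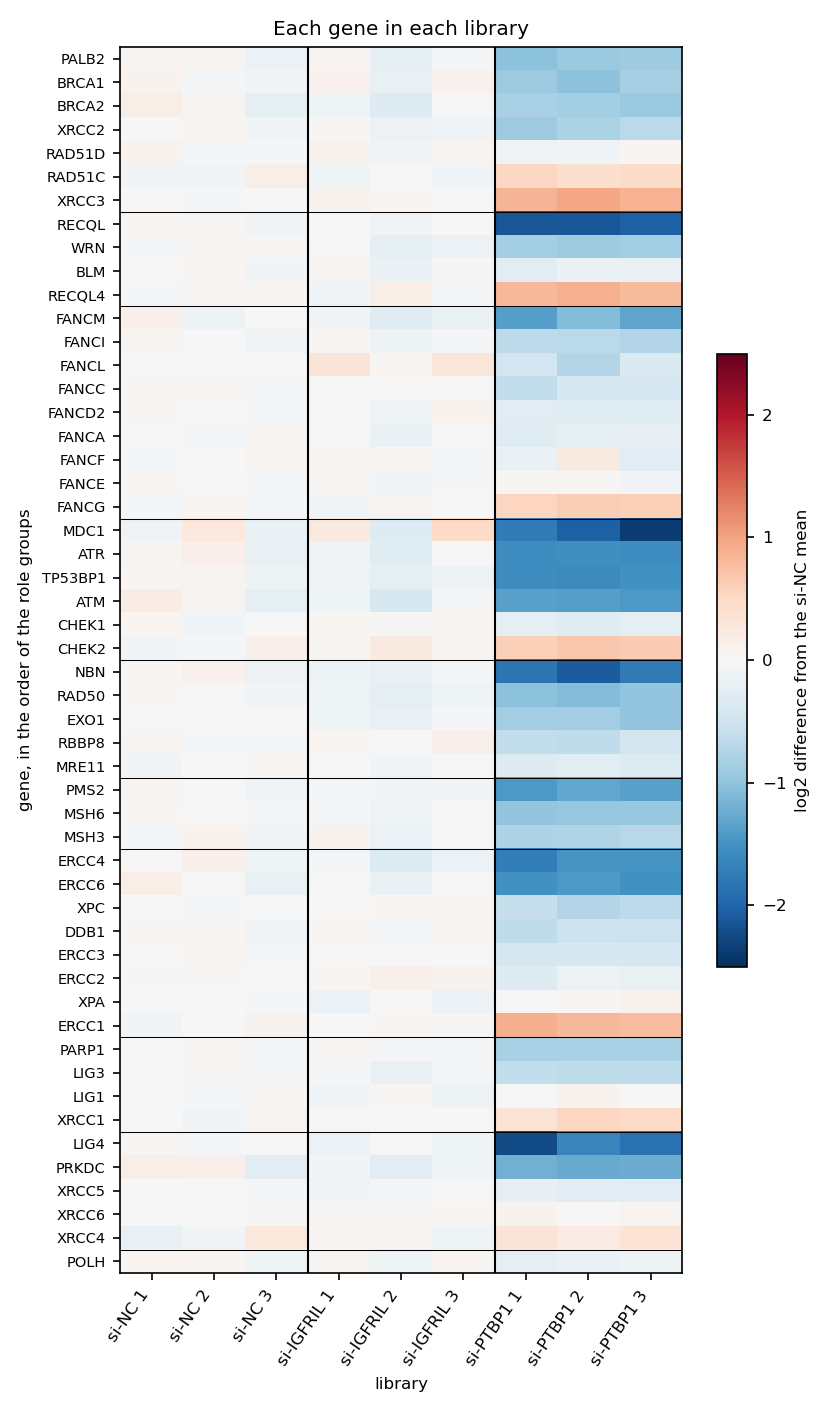
Log2 difference of each of the 52 genes (rows, in role groups) from its si-NC mean in each of the 9 libraries (columns), red for higher and blue for lower. The 3 si-PTBP1 columns stand apart in most rows, with a median of -0.50 to -0.64, while the medians of the si-NC and si-IGFRIL columns lie between -0.08 and 0.01.

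Promoter sequences were read for the genes that changed most, to show what lies at their starts. RefSeq windows on GRCh38.p14, running from 250 bases before a start to 50 after it, were matched by symbol for 46 of the 52 genes, in 66 windows of 300 bases. WRN, RECQL4, FANCI, NBN, XRCC5 and PRKDC had no window in the table used. The motifs searched on both strands were the CCAAT box (CCAAT), the cell cycle homology region or CHR (TTTGAA), E2F sites (TTTGGCGC, TTTCGCGC, TTTCCCGC and TTTGCCGC) and an ETS site (CCGGAAG). The windows of XRCC3 and CHEK2, called higher, and of RECQL and MDC1, called lower, are shown as the largest changes among genes with a single window in the table, and those of FANCD2 and XRCC2 as genes with an E2F site. Capitals mark the motifs on either strand.
XRCC3, chr14:103715402-103715701, minus strand: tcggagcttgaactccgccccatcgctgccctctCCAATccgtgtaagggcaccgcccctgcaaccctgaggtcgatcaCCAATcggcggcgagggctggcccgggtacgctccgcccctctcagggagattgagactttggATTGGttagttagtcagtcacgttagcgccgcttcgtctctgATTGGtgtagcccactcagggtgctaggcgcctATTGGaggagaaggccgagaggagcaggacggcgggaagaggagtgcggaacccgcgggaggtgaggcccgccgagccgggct
CHEK2, chr22:28741771-28742070, minus strand: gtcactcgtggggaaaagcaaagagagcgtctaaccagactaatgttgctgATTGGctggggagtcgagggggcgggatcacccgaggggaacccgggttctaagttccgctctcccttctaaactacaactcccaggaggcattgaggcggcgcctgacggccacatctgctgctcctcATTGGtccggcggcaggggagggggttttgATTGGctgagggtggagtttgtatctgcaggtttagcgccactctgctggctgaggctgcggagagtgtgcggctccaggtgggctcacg
RECQL, chr12:21501586-21501885, minus strand: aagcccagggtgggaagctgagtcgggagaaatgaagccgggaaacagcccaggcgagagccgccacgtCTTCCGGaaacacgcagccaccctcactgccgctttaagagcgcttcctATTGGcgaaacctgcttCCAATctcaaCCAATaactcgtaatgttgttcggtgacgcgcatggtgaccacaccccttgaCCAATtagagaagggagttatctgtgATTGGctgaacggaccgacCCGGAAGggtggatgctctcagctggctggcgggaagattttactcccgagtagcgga
MDC1, chr6:30717232-30717531, minus strand: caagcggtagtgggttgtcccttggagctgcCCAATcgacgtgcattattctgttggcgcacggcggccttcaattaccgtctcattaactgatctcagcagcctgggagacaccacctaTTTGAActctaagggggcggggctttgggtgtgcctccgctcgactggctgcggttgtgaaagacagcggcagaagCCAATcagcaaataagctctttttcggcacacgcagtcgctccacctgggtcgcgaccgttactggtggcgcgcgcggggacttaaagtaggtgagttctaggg
FANCD2, chr3:10026187-10026486, plus strand: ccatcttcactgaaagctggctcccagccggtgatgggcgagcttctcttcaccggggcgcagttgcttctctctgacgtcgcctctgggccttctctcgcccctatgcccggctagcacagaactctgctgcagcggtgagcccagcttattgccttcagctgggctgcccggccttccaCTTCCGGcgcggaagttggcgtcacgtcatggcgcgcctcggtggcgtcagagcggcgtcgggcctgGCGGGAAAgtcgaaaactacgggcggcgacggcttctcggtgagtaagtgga
XRCC2, chr7:152676092-152676391, minus strand: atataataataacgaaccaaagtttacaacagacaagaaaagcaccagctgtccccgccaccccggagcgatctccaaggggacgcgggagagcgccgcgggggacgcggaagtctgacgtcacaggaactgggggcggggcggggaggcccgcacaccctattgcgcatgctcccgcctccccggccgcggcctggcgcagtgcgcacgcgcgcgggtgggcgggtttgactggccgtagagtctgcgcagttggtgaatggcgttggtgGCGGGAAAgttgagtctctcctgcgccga

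The XRCC3 and RECQL windows each held 5 CCAAT boxes and the CHEK2 window 3, although XRCC3 and CHEK2 rose and RECQL fell. Over all 66 windows of the 52 genes, 40.9% held a CCAAT box, against 34.4% of the 16130 windows of listed genes. An E2F site was in 18.2% of their windows and in 4.82% of all windows, an ETS site in 30.3% and 16.0%, and a CHR in 9.09% and 10.6%. No window of the 52 genes held overlapping motifs of different kinds. The 11 genes with an E2F site (EXO1, FANCA, FANCC, FANCD2, LIG1, MSH3, MSH6, PMS2, XPC, XRCC2 and XRCC6) counted 8 lower and 0 higher after PTBP1 knockdown, and their median was -0.65 on the log2 scale. The 35 without it counted 20 lower and 7 higher, with a median of -0.53. The 16 genes with an ETS site counted 12 lower and 2 higher (median -0.90), and the 30 without it 16 lower and 5 higher (median -0.50). The 6 genes with a CHR counted 4 lower and 2 higher (median -0.93), and the 40 without it 24 lower and 5 higher (median -0.55). For the CCAAT box the 22 genes with it counted 11 lower and 5 higher (median -0.29), and the 24 without it 17 lower and 2 higher (median -0.57). These counts by motif are from the fit before trend removal, and the splits are not given with the trend removed. In that fit 33.8% of all genes were called lower and 32.2% higher. The part of transcript length in the splits was not tested. A match describes letters in the window and not binding of a factor.

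Among the homologous recombination genes, 4 of 7 were called lower and 2 higher after PTBP1 knockdown, and their median log2 fold change was -0.79. With the length and GC trend removed 1 was lower and 3 were higher, and the median turned to 0.26. For this and each role group below, the shares of all genes were 33.8% lower and 32.2% higher. They were 26.4% and 24.5% with the trend removed. BRCA1, which directs broken ends to recombination, had scaled counts of 1860, 1715 and 1671 in si-NC and of 932, 863 and 978 in si-PTBP1. The groups did not overlap, and BRCA1 fell by 0.92 on the log2 scale (SE 0.0744, limma adjusted p = 1.8e-09). Here and below, a lack of overlap only describes the libraries of that gene. The share of all genes without overlap is not given. PALB2, which bridges BRCA1 to BRCA2, had 808, 799 and 697 in si-NC and 375, 402 and 411 in si-PTBP1, again without overlap, and a log2 fold change of -0.95 ± 0.0835 (SE, limma adjusted p = 3.5e-09). BRCA2, which prepares resected ends for strand exchange, was called lower at -0.86. With the length and GC trend removed PALB2 stayed lower at -0.48, whereas BRCA1 at -0.04 and BRCA2, which turned to 0.26, were not called. Without si-NC replicate 3 BRCA2 was at -0.98, and without si-IGFRIL replicate 2 at -0.84.

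XRCC2, XRCC3, RAD51C and RAD51D, whose products form complexes that assist strand exchange, moved in different directions. XRCC3 (chr14:103697609-103715504, minus strand) had scaled counts of 942, 925 and 946 in si-NC, 999, 976 and 949 in si-IGFRIL and 1681, 1826 and 1704 in si-PTBP1. Every si-PTBP1 library lay above every other library, and the log2 fold change against si-NC was 0.89 ± 0.0551 (SE, limma adjusted p = 2.3e-11). Of the XRCC3 transcript 34.2% overlaps exons of KLC1, and the counting was not stated to use strand, so reads of the pair cannot be told apart there. RAD51C rose by 0.46 and XRCC2 fell by 0.79, while RAD51D was not called at -0.04. With the trend removed XRCC3 stayed higher at 0.29 and RAD51C at 0.55, XRCC2 was not called at -0.14, and RAD51D was called higher at 0.87.

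The 4 RecQ helicases, which unwind recombination and replication intermediates, covered nearly the whole range of the 52 genes. BLM (chr15:90717346-90816166, plus strand), the helicase that dissolves double Holliday junctions, had scaled counts of 1244, 1281 and 1182 in si-NC, 1300, 1099 and 1253 in si-IGFRIL and 1027, 1101 and 1086 in si-PTBP1. The si-PTBP1 libraries lay below all si-NC libraries, but replicate 2 lay above the lowest si-IGFRIL library. The log2 fold change of BLM against si-NC was -0.21 ± 0.0651 (SE), with a limma adjusted p of 0.0081 and a fold change of 1.15, under the threshold of 1.2, so BLM was not called. Without si-NC replicate 3 its estimate was -0.24. It turned to 0.50 and was called higher with the length and GC trend removed.

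RECQL (chr12:21468910-21501669, minus strand) had the largest change of all 52 genes. Its scaled counts were 1553, 1534 and 1435 in si-NC, 1525, 1409 and 1490 in si-IGFRIL, and 343, 346 and 365 in si-PTBP1. The si-PTBP1 libraries held 4.28-fold less, a log2 fold change of -2.10 ± 0.0608 (SE, limma adjusted p = 2e-15), and RECQL was called in all 19 alternative settings. Of its transcript 41.8% overlaps exons of PYROXD1. WRN, the helicase lost in Werner syndrome, had 548, 581 and 582 in si-NC and 315, 309 and 317 in si-PTBP1, with no overlap and a log2 fold change of -0.86 (limma adjusted p = 4e-09). WRN was not called, at 0.09, with the trend removed. RECQL4, a helicase that also helps replication origins fire, had 3172, 3336 and 3344 in si-NC and 5856, 6059 and 5695 in si-PTBP1. It rose by 0.84 (limma adjusted p = 3.4e-11), and by 0.50 with the trend removed.

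**Figure D2:**
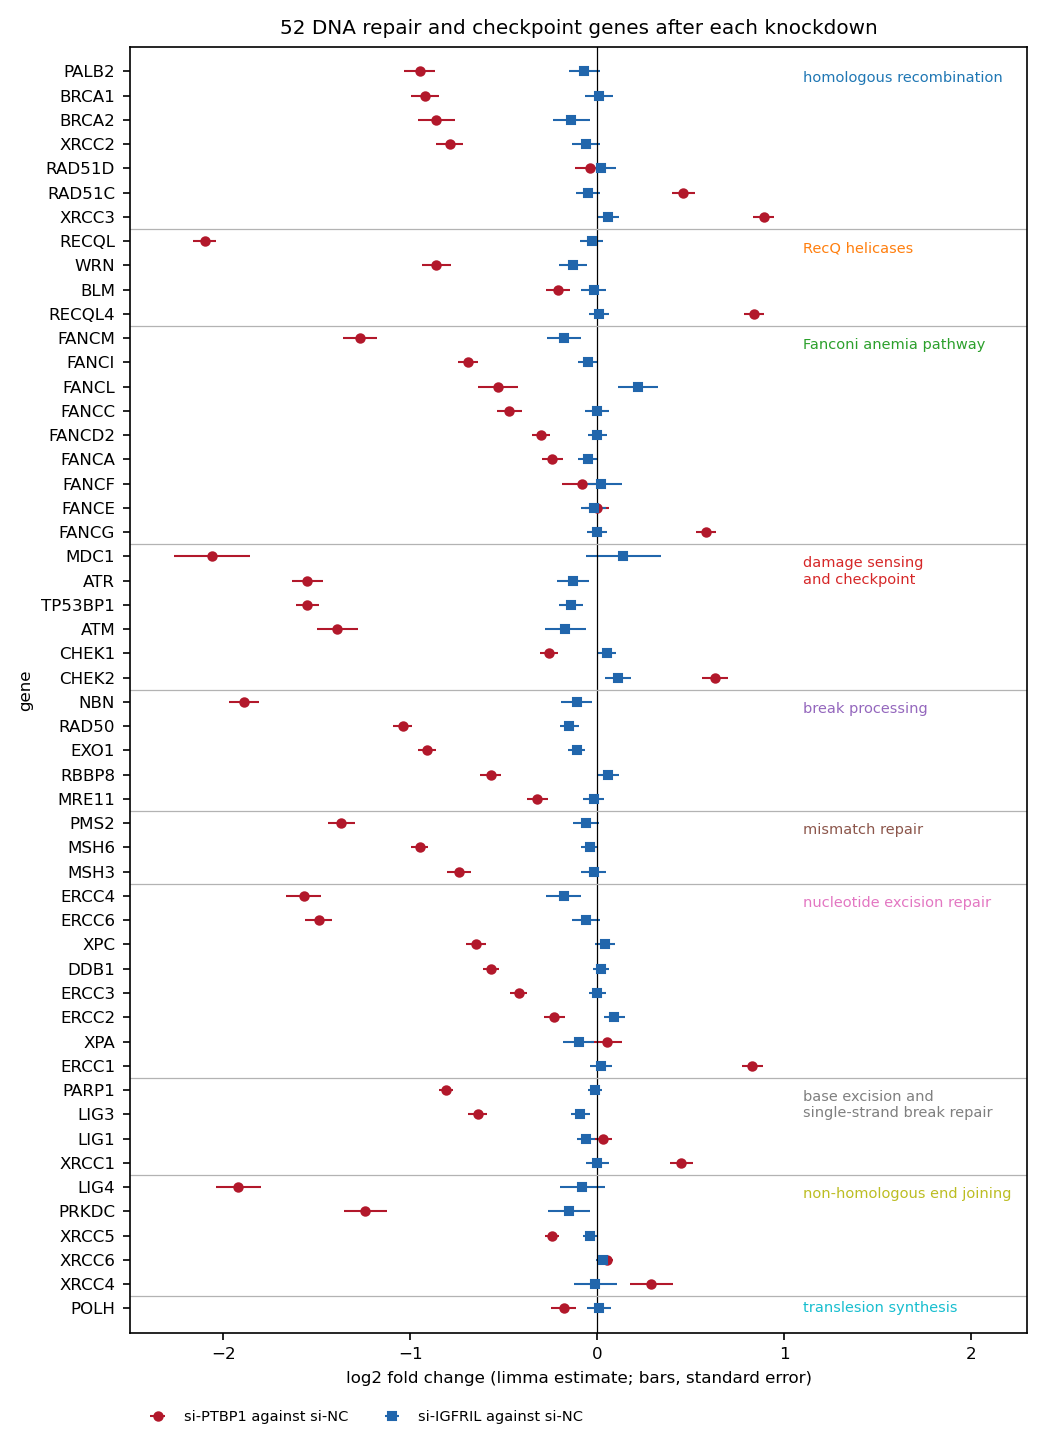
Log2 fold change with its standard error for each of the 52 genes, grouped by role and ordered within each group, in si-PTBP1 against si-NC (circles) and in si-IGFRIL against si-NC (squares). Circles spread from -2.10 for RECQL to 0.89 for XRCC3, and all squares lie between -0.18 and 0.22.

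In the Fanconi anemia pathway 5 of 9 genes were called lower and 1 higher, with a median log2 fold change of -0.30. With the trend removed 3 were lower and 1 higher, with a median of -0.07. FANCM, the helicase that recruits the core complex to stalled forks, had scaled counts of 699, 589 and 642 in si-NC and 246, 300 and 255 in si-PTBP1. It fell 2.41-fold, with a log2 fold change of -1.27 ± 0.0911 (SE, limma adjusted p = 1.9e-10), and was still called at -0.34 with the trend removed. FANCI, which is clamped on DNA together with FANCD2, had 4363, 4195 and 3894 in si-NC and 2638, 2600 and 2479 in si-PTBP1, a log2 fold change of -0.69 (limma adjusted p = 4.4e-10). FANCD2 itself was called lower at -0.30, and with the trend removed FANCI was not called at -0.09 and FANCD2 was called higher at 0.34. FANCL, the ubiquitin ligase subunit that marks both, fell by 0.53 and was lower still, at -0.74, with the trend removed.

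The other subunits of the Fanconi core complex did not share a direction. FANCG had 1324, 1393 and 1321 scaled counts in si-NC and 1957, 2069 and 2028 in si-PTBP1, so that the groups did not overlap, and it rose by 0.58 ± 0.053 (SE, limma adjusted p = 5.8e-09). Its estimate was 0.21, under the fold threshold, with the trend removed. FANCC fell by 0.47 and was not called with the trend removed, at -0.07. FANCA, FANCE and FANCF were not called, with log2 fold changes of -0.24, 0.00 and -0.08. Removing the trend turned FANCA to 0.11 and FANCF to 0.20, neither called, and FANCE was then called lower at -0.38. A share of 27.4% of the FANCA transcript overlaps ZNF276 and 27.3% of that of FANCL overlaps VRK2.

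The damage sensing and checkpoint genes had the lowest median of the groups with more than 1 gene, at -1.47, with 4 of 6 called lower and 1 higher. That order rests on the trend, since with it removed their median was -0.43 and that of the mismatch repair genes -0.46. ATR, the kinase of stalled forks, had scaled counts of 1226, 1264 and 1021 in si-NC, 1093, 943 and 1177 in si-IGFRIL and 397, 402 and 394 in si-PTBP1. Its si-PTBP1 libraries lay close together and far below the rest, with a 2.93-fold fall and a log2 fold change of -1.55 ± 0.0849 (SE, limma adjusted p = 5.6e-12). ATM, the kinase of double-strand breaks, was called lower at -1.39 and its si-NC values spread more, from 1548 in replicate 3 to 2063 in replicate 1. Without si-NC replicate 3 the ATM estimate was -1.51, and without si-IGFRIL replicate 2 it was -1.38. Both were still called with the trend removed, ATR at -0.58 and ATM at -0.27.

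Both large adaptors that gather on damaged chromatin fell with these kinases. TP53BP1, which shields broken ends from resection, had 1860, 1890 and 1648 scaled counts in si-NC and 615, 593 and 632 in si-PTBP1, a log2 fold change of -1.55 ± 0.0621 (SE, limma adjusted p = 8.5e-14). MDC1, which binds phosphorylated H2AX, was the least abundant of the 52 genes per length, with 167, 212 and 158 scaled counts in si-NC, 209, 141 and 250 in si-IGFRIL and 52, 42 and 33 in si-PTBP1. It fell 4.16-fold (log2 fold change -2.06 ± 0.201 SE, limma adjusted p = 5.3e-08). Each was also called with the trend removed, TP53BP1 at -0.59 and MDC1 at -1.46. TUBGCP4 overlaps 36.0% of the TP53BP1 transcript, and the antisense gene MDC1-AS1 overlaps 10.1% of that of MDC1.

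Of the effector kinases CHEK2 moved opposite to the sensors against si-NC, and CHEK1 moved the same way by less. CHEK2, the target of ATM, had scaled counts of 600, 610 and 687 in si-NC, 645, 735 and 666 in si-IGFRIL and 959, 1006 and 978 in si-PTBP1. CHEK2 was described in full after its values were seen. It was called higher at 0.63 ± 0.0705 (SE, limma adjusted p = 1.1e-07) and at 0.41 with the trend removed. CHEK1, the target of ATR, was not called, with a log2 fold change of -0.26 and a limma adjusted p of 9.3e-05 at a fold change of 1.19. Its sign turned with the trend removed, to 0.26 with a limma adjusted p of 9.9e-06, still just under the fold threshold. STT3A and another annotated gene overlap 18.2% of the CHEK1 transcript.

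All 5 break processing genes were called lower, with a median of -0.91. With the trend removed 2 were lower and 1 higher, with a median of -0.25. NBN, the adaptor of the MRE11-RAD50-NBN complex that brings in ATM, had scaled counts of 1343, 1402 and 1189 in si-NC, 1196, 1152 and 1288 in si-IGFRIL and 370, 309 and 383 in si-PTBP1. The fall was 3.70-fold (log2 fold change -1.89 ± 0.0819 SE, limma adjusted p = 2.4e-13) and stayed at -1.24 with the trend removed. RAD50 had 3904, 3806 and 3584 in si-NC and 1840, 1763 and 1891 in si-PTBP1, a log2 fold change of -1.04 (limma adjusted p = 8.3e-13). Other annotated genes overlap 91.0% of its transcript. The nuclease of the complex, MRE11, moved least of the 3, at -0.32, and with the trend removed RAD50 was not called at -0.08 and MRE11 was called higher at 0.58.

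EXO1, the exonuclease that extends resected ends, had 4548, 4527 and 4505 scaled counts in si-NC, 4197, 3989 and 4396 in si-IGFRIL and 2462, 2477 and 2297 in si-PTBP1. The groups did not overlap, and EXO1 fell by 0.91 (SE 0.0471, limma adjusted p = 2e-12) and by 0.56 with the trend removed. RBBP8, which encodes CtIP and starts resection, fell by 0.57 and had an estimate of -0.25 with the trend removed, under the fold threshold.

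The 3 mismatch repair genes were all called lower, with a median of -0.95. With the trend removed 2 were lower and 0 higher, with a median of -0.46. MSH6, which recognises mismatched bases, had scaled counts of 5561, 5346 and 5139 in si-NC and 2713, 2787 and 2788 in si-PTBP1, a log2 fold change of -0.95 ± 0.0448 (SE, limma adjusted p = 5.7e-13). MSH3, which recognises larger loops, had 1209, 1317 and 1182 in si-NC and 726, 731 and 767 in si-PTBP1, a log2 fold change of -0.74 (limma adjusted p = 4.6e-09). PMS2, an endonuclease of this pathway, had 754, 720 and 678 in si-NC and 263, 292 and 278 in si-PTBP1, a log2 fold change of -1.37 (limma adjusted p = 2.4e-12). None of the 3 had overlapping groups. Removing the trend left MSH6 lower at -0.46 and PMS2 at -0.79, and MSH3 was under the fold threshold at -0.16. PMS2 has near-identical pseudogene copies, so its counts are uncertain where reads could be split among them. FBXO11 overlaps 12.4% of the MSH6 transcript.

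Among the nucleotide excision repair genes 5 of 8 were called lower and 1 higher, with a median of -0.49. With the trend removed 7 were lower and 1 higher, with a median of -0.40. ERCC1 and ERCC4, which encode the subunits of the XPF-ERCC1 nuclease, were called in opposite directions. ERCC1 (chr19:45407334-45478828, minus strand) had scaled counts of 1160, 1221 and 1293 in si-NC, 1213, 1270 and 1244 in si-IGFRIL and 2297, 2141 and 2084 in si-PTBP1. ERCC4 (chr16:13920138-13952348, plus strand) had 704, 767 and 651, then 678, 556 and 639, then 211, 253 and 252 in the same order. Both pairs of groups stood apart without overlap, with log2 fold changes of 0.83 ± 0.0566 (SE) for ERCC1 (limma adjusted p = 9.1e-11) and -1.57 ± 0.093 (SE) for ERCC4 (limma adjusted p = 1.2e-11). The difference held with the trend removed, at 0.76 and -0.69. POLR1G overlaps 47.1% of the ERCC1 transcript, and reads of the pair cannot be told apart there.

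ERCC6, the CSB protein that reads stalled transcription, had 2322, 2068 and 1817 scaled counts in si-NC and 716, 762 and 716 in si-PTBP1. It was called lower at -1.49 ± 0.0734 (SE, limma adjusted p = 1.7e-12) and at -0.51 with the trend removed, and its estimate without si-NC replicate 3 was -1.58. The damage sensor XPC, the helicase subunit ERCC3 and the damage-binding subunit DDB1 were called lower at -0.65, -0.42 and -0.57, and remained so with the trend removed. XPC-AS1 and another annotated gene overlap part of the XPC transcript, and other genes overlap 13.5% of that of ERCC4 and 13.0% of that of ERCC2. The helicase subunit ERCC2 and the scaffold XPA were not called, at -0.23 and 0.05, and with the trend removed both were called lower, at -0.28 and -0.32.

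Of the 4 base excision and single-strand break repair genes, 2 were called lower and 1 higher. With the trend removed 1 was lower and 0 higher. PARP1, the sensor of strand breaks, had scaled counts of 11921, 12199 and 11645 in si-NC, 12122, 11682 and 11601 in si-IGFRIL and 6821, 6817 and 6820 in si-PTBP1. It fell by 0.81 (SE 0.0377, limma adjusted p = 5.5e-13) and by 0.49 with the trend removed. XRCC1, the scaffold that holds LIG3, had 1113, 1055 and 1165 in si-NC and 1404, 1612 and 1546 in si-PTBP1, a log2 fold change of 0.45 (limma adjusted p = 1.4e-06). LIG3, the ligase itself, had 2258, 2342 and 2252 in si-NC and 1483, 1462 and 1463 in si-PTBP1, a log2 fold change of -0.64 (limma adjusted p = 1.1e-09). Neither had overlapping groups, but with the trend removed both turned and neither was called, XRCC1 at -0.14 and LIG3 at 0.21. RFFL overlaps 44.8% of the LIG3 transcript, and other annotated genes 22.7% of that of XRCC1. LIG1, the replicative ligase, was not called at 0.03, nor at -0.26 with the trend removed.

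Among the 5 non-homologous end joining genes 2 were called lower and 1 higher, with a median of -0.24. With the trend removed 1 was lower and 0 higher, with a median of -0.14. LIG4 (chr13:108207439-108218368, minus strand), the ligase of this pathway, had scaled counts of 390, 375 and 386 in si-NC, 346, 387 and 357 in si-IGFRIL and 81, 121 and 104 in si-PTBP1. The fall was 3.78-fold (log2 fold change -1.92 ± 0.12 SE, limma adjusted p = 2.6e-11) and stayed at -1.38 with the trend removed. Its partner XRCC4 was called higher at 0.29 with a limma adjusted p of 0.027, but its groups overlapped, and it lost the call in 7 of 19 alternative settings, among them without si-NC replicate 1 or 2 and without si-PTBP1 replicate 1 or 3. Its estimate was 0.08 with the trend removed.

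PRKDC, the catalytic subunit of the DNA-dependent protein kinase, had scaled counts of 24514, 24228 and 18273 in si-NC, 21106, 18204 and 20624 in si-IGFRIL and 9580, 9185 and 9383 in si-PTBP1. The si-NC and si-IGFRIL libraries overlapped and the si-PTBP1 libraries lay far below both, with a log2 fold change against si-NC of -1.24 ± 0.113 (SE, limma adjusted p = 1.4e-05). Without si-NC replicate 3 the estimate was -1.38, without si-IGFRIL replicate 2 it was -1.23, and with the trend removed it was -0.20 and under the fold threshold. XRCC5, which encodes Ku80, had 10969, 10917 and 10641 in si-NC and 9448, 8996 and 9063 in si-PTBP1. Its groups did not overlap, but at a log2 fold change of -0.24 (limma adjusted p = 1.1e-05) it stayed under the fold threshold. XRCC6, which encodes Ku70, was not called at 0.05. Their signs turned with the trend removed, to 0.08 for XRCC5 and -0.14 for XRCC6, and neither was called. POLH, the polymerase that copies past ultraviolet lesions, had 1218, 1221 and 1087 in si-NC and 985, 1048 and 1078 in si-PTBP1. It was not called at -0.18 (limma adjusted p = 0.019), and with the trend removed it was called higher at 0.70.

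Ratios between genes whose products work together were taken within each library, as a description of pairs chosen after their values were seen. The log2 ratio of ERCC4 to ERCC1 was -0.79 ± 0.17 in si-NC, -1.0 ± 0.18 in si-IGFRIL and -3.19 ± 0.22 in si-PTBP1 (mean ± SD, n = 3 each). For LIG4 to XRCC4 it was 0.82 ± 0.24, 0.74 ± 0.09 and -1.39 ± 0.34. For ATM to CHEK2 it was 1.53 ± 0.32, 1.25 ± 0.29 and -0.49 ± 0.05. The si-PTBP1 mean minus the si-NC mean was -2.39, -2.21 and -2.02 in these 3 pairs. The ratios of NBN to MRE11, PRKDC to XRCC6, ATR to CHEK1, XRCC2 to RAD51C and LIG3 to XRCC1 had smaller differences, of -1.57, -1.29, -1.29, -1.25 and -1.09, and in every pair the first gene has the longer transcript except in NBN to MRE11. With the length and GC trend removed 7 of the 8 differences stayed below 0, from -1.82 for NBN to MRE11, -1.46 for LIG4 to XRCC4 and -1.45 for ERCC4 to ERCC1 to -0.06 for PRKDC to XRCC6, and that of LIG3 to XRCC1 turned to 0.35.

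Levels between genes were compared per length, in the RPKM unit. Scaled counts were divided by the kilobases of the canonical transcript and by the mean library total of the listed genes. On this scale the 52 genes ran from 1.0 for MDC1 to 320 for XRCC6 in si-NC. XRCC5 followed at 125, then PARP1 at 117 and DDB1 at 116, and the order of these 3 rests on small differences and on the length taken for each. In si-PTBP1 XRCC6 stood at 333 and XRCC5 at 106, while PARP1 stood at 66.9, PRKDC went from 64.8 to 27.2 and RECQL4 from 33.6 to 60.0. MDC1 was at 0.238 and LIG4 at 1.0.

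**Figure D3:**
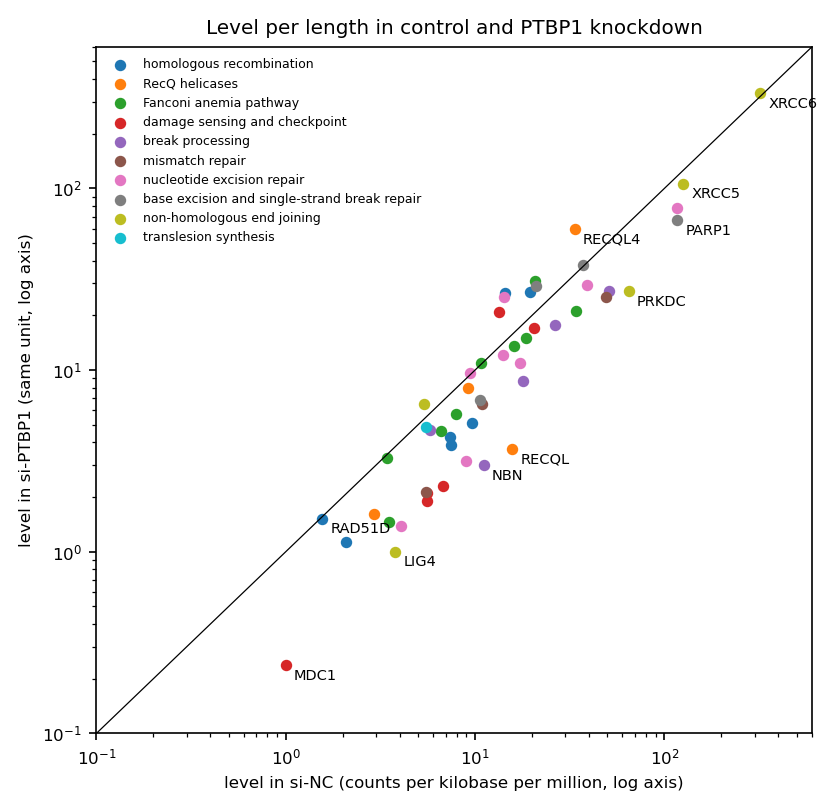
Level of each of the 52 genes per kilobase of transcript (RPKM unit) in si-PTBP1 (vertical, log axis) against si-NC (horizontal, log axis), coloured by role, with a line of equality. XRCC6 lies on the line, RECQL4 above it, and RECQL, NBN, LIG4 and MDC1 farthest below it.

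After IGFRIL knockdown the log2 fold changes of the 52 genes ran from -0.18 for FANCM to 0.22 for FANCL, with a median of -0.02 and standard errors from 0.0353 to 0.201. The 3 genes with p under 0.05 before adjustment were RAD50 at -0.15, EXO1 at -0.11 and TP53BP1 at -0.14, and their limma adjusted p were 0.25, 0.42 and 0.43. PRKDC was at -0.15 with a limma adjusted p of 0.74. Without si-NC replicate 3 it was at -0.29 with a limma adjusted p of 0.0053 and was the 1 gene called lower, and without si-IGFRIL replicate 2 it was at -0.08 with a limma adjusted p of 0.95. Without that si-IGFRIL library ATM went from -0.17 to -0.06 and BRCA2 from -0.14 to -0.05. BLM was at -0.02 ± 0.0651 (SE), and a change of the size seen in RECQL or NBN after PTBP1 knockdown lay far outside that error. These values do not show that smaller changes were absent. The study lists BLM among genes with splicing altered in both knockdowns and less PTBP1 binding after IGFRIL knockdown. Counts per gene do not show splicing. Both knockdowns were compared with the same si-NC libraries, so their values share the errors of those libraries.

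Set directly against si-IGFRIL, si-PTBP1 had 34 of the 52 genes called lower and 8 higher by limma, with 33.1% and 31.5% for all genes and a median log2 fold change of -0.61. With the length and GC trend removed 20 were lower and 10 higher, where 3519 of all 13878 genes with a length were lower and 3298 higher. RECQL was at -2.07, MDC1 at -2.19, NBN at -1.78 and LIG4 at -1.84 in this comparison, and XRCC3 and RECQL4 were both at 0.83. BLM was at -0.18 with a limma adjusted p of 0.018 and was not called, and CHEK1 at -0.30 and ERCC2 at -0.32 were called lower.

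The rest of the repair machinery, listed by pathway, was spread more evenly. Of 127 further repair and checkpoint genes 122 were in the table, with 47 called higher and 49 lower after PTBP1 knockdown and a median log2 fold change of -0.03. Their median transcript was 3038 bases, shorter than that of the 52 genes, and rho with length over them was -0.65. Trend removal gave 32 higher and 32 lower, with a median of -0.06. For these counts and those of each list below, the shares of all genes were 32.2% higher and 33.8% lower. They were 24.5% and 26.4% with the trend removed. After IGFRIL knockdown 0 of the 122 were called by limma, and before adjustment 6 were higher and 3 lower at p under 0.05. Of all 15164 genes, 835 were higher and 669 lower before adjustment.

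In homologous recombination 9 of 28 further genes were called higher and 14 lower, and with the trend removed 7 and 6. SMC5 and SMC6, which form a ring that steadies repair intermediates, fell (log2 fold changes of -0.91 and -1.03), as did the deubiquitinase BRCC3 (-0.86), while BABAM2 of the same BRCA1-A complex rose (0.95). In the Fanconi anemia pathway 7 of 10 rose and 3 fell, with a median of 0.61, but with the trend removed 2 were higher and 3 lower, with a median of 0.05. UBE2T, the conjugating enzyme that serves FANCL, CENPX and FAAP100 rose (0.71, 0.99 and 0.69), while USP1, which removes ubiquitin from FANCD2, fell (-0.93). SMC5 and CENPX were not called with the trend removed, at -0.08 and -0.10, and UBE2T was under the fold threshold at 0.18.

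In the checkpoint 7 of 23 further genes rose and 11 fell, and with the trend removed 5 were higher and 3 lower. TOPBP1, the activator of ATR, and the ubiquitin ligase RNF168 fell (log2 fold changes of -0.91 and -0.84), while MAD2L2 and PKMYT1 rose (0.87 and 0.76). None of these 4 was called with the trend removed, and MAD2L2 and PKMYT1 turned to -0.17 and -0.20. In mismatch repair PMS1 and MLH3 fell (-0.30 and -0.28). Trend removal left MLH3 called higher at 0.65, and PMS1 was not called at 0.02.

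In nucleotide excision repair 6 of 17 further genes rose and 7 fell, and with the trend removed 3 were higher and 5 lower. CUL4A and CUL4B, the cullins that carry DDB1, fell (log2 fold changes of -1.11 and -0.97), and GTF2H5 of the TFIIH complex rose (1.11). CUL4A was still called with the trend removed, at -0.36, and CUL4B was not, at -0.16. ERCC5, the nuclease XPG, was at 91.8, 71.8 and 71.3 scaled counts in si-NC and at 2.31, 4.04 and 3.44 in si-PTBP1. Of its transcript 91.7% overlaps the BIVM-ERCC5 readthrough gene, so its counts depend on how reads were split between them. In base excision and single-strand break repair 12 of 23 rose and 4 fell, with a median of 0.29, but with the trend removed 7 were higher and 9 lower, with a median of -0.07. The glycosylases NTHL1 and MPG and the endonuclease APEX1 rose (1.12, 1.14 and 0.58), while PARG, which removes poly(ADP-ribose), fell (-1.07). PARG stayed lower with the trend removed, at -0.55, and NTHL1, MPG and APEX1 were not called, at -0.07, -0.06 and 0.07.

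Among 6 further end joining genes 3 rose and 1 fell. The counts were again 3 and 1 with the trend removed, but the genes called higher were not all the same. PAXX, which steadies Ku, and the gap-filling polymerases POLM and POLL rose (log2 fold changes of 1.49, 0.85 and 0.62), while POLQ, the polymerase of the alternative pathway, fell (-1.29). PAXX and POLL were under the fold threshold with the trend removed, at 0.13 and 0.21. Of 11 genes of translesion synthesis and direct reversal 3 rose and 6 fell, and with the trend removed 4 were higher and 4 lower. SHPRH and HLTF, ligases that extend the ubiquitin chain on PCNA, fell further than any of the 52 genes, with log2 fold changes of -3.17 and -2.85, and stayed at -2.25 and -2.09 with the trend removed. REV3L, the catalytic subunit of polymerase zeta, was at -1.93 and POLK at -1.0. REV3L was still called at -0.88 with the trend removed, and POLK was not, at 0.15.

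Growth-related genes were counted beside the repair genes because many repair genes are made in S phase. Of 30 proliferation genes 10 were called higher and 12 lower after PTBP1 knockdown, with a median of -0.02, and with the trend removed 7 and 8. TK1, CDT1 and MYBL2 rose (log2 fold changes of 1.2, 1.06 and 0.78), and MCM2 fell (-1.26). Their values with the trend removed were 0.29, 0.43, 0.34 and -1.35. Of 18 listed p53 target genes 6 were higher and 7 lower, with a median of -0.01, and with the trend removed 4 were higher and 9 lower, with a median of -0.26. The 4 of smallest p, ZMAT3, PLK2, RRM2B and MDM2, fell (-1.81, -1.41, -1.19 and -1.05), and MDM2 was not called with the trend removed, at -0.11. The 6 called higher, listed after their values were seen, were BBC3, BAX, TP53I3, PHLDA3, BTG2 and FDXR, with log2 fold changes up to 0.99. With the trend removed BTG2 was still called higher at 0.67, whereas BAX and FDXR were called lower at -0.43 and -0.44. After IGFRIL knockdown none of either list was called by limma. Before adjustment 4 proliferation genes were higher and 0 lower, and 0 p53 targets higher and 1 lower, at p under 0.05. Of all 15164 genes, 835 were higher and 669 lower before adjustment.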

How the data were processed

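RNA-seq libraries of HepG2 cells were made with the VAHTS mRNA-seq v2 kit. Per the labels and the study's methods, the authors used Trim Galore 0.6.7 for trimming, Bowtie2 2.2.5 for mapping to GRCh38 and RSEM 1.2.8 for counting. The deposited table holds log2 values, read from their steps as log2(count + 1) with 2 decimals and no scaling for depth. The log2 step, the strand setting and the gene filter were not given in the sources used here. Columns named si342 were taken as si-IGFRIL, from the study's first name for this RNA.

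Counts were returned from the log2 values (rounding can move them by 0.347%), and TMM scaling followed. The scaled values, on a log2 scale after adding a pseudocount of 1, entered limma 3.58.1 in R 4.3.3, with a trended and robust prior, over all 9 libraries and 15164 genes. A fold change on this scale understates that of low genes. The filter, a count of at least 1 in 3 libraries, removed 0 genes. Scaled counts are counts divided by relative TMM library sizes. Lengths, GC content and overlaps came from canonical transcripts of GENCODE 44 for 13878 genes, 91.5% of those listed and all 52 repair genes, with 174 matched by an older name. The trend was a lowess curve (span 0.4) of each library's deviation on log2 length and then on GC content. Libraries of a group differed by more than counting noise (chi-square per degree of freedom 2.47 to 8.8). Depth, of 23426747 to 27942736 counts, therefore does not set the precision alone.

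The genes, lists and tests were chosen with earlier results of these data known, so none is independent evidence. Values are given in each library for BLM, for genes called in si-IGFRIL against si-NC, and for up to 3 genes per role group with the smallest p in si-PTBP1 against si-NC. Of each other list up to 4 genes were named by the same p. Some of these are not reported here. CHEK2, ATM and the partner pairs were added after their values were seen. The alternatives were other scalings, pseudocount, filter, variance models, thresholds, a replicate block, trend removal and leaving out each library.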

Additional observations from a re-analysis of the deposited data

How the results depend on the processing

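Across 19 refits and 2 other thresholds, the count of genes called lower in si-PTBP1 against si-NC stayed within 1.5 times its value. Without scaling for depth 5 were higher against si-NC and the median was -0.797, as it was against si-IGFRIL, where the median of all genes itself shifted by -0.22 against si-NC. At a fold change over 1.5, 4 were higher in each comparison of si-PTBP1. With the length and GC trend removed, with or without the replicate block, the medians were -0.15 against si-NC and -0.151 against si-IGFRIL, where 20 were lower. After IGFRIL knockdown 0 to 1 genes were lower when each library was left out in turn, the 1 being PRKDC without si-NC replicate 3.

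Trend removal, with the same estimate under the replicate block, turned the direction of 17 genes against si-NC. Of these, CHEK1, FANCA, FANCF, XRCC5, XRCC6 and LIG1 were called neither with nor without the trend, at the scaling used throughout. The others were BRCA2 to 0.256, RAD51D to 0.87, BLM to 0.499, WRN to 0.091, FANCD2 to 0.338, FANCE to -0.384, MRE11 to 0.584, XPA to -0.322, XRCC1 to -0.137, LIG3 to 0.211 and POLH to 0.698. Against si-IGFRIL the genes that turned and were called in either of these fits were BRCA2 to 0.305, RAD51D to 0.782, BLM to 0.491, WRN to 0.165, FANCD2 to 0.308, FANCE to -0.344, CHEK1 to 0.197, MRE11 to 0.559, RAD50 to 0.006, XRCC1 to -0.108, LIG3 to 0.243 and POLH to 0.635. Why length and fold change go together was not tested.

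The replicate numbers did not pair the libraries (correlations of same-numbered deviations from -0.23 to 0.242). With the replicate block alone 8 genes were higher and 32 lower against si-NC, and 8 and 34 against si-IGFRIL.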
